A study of Mus musculus with 9 samples.

Results

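Potassium channel genes were taken as all genes whose symbol starts with Kcn and that had a probe set naming exactly 1 gene, with the probe set of highest mean over the 9 arrays standing for the gene. There were 84 such genes among the 18193 genes measured. Of these, 81 encode channel subunits or their auxiliary proteins, and 3 are noncoding RNAs that carry the symbol (Kcnq1ot1, Kcnmb4os1 and Kcnmb4os2). A single probe set was present for 38 of them, and between 2 and 6 for the other 46.

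Striatal RNA of female mice aged 12 weeks was measured, 1 array per mouse. The 5 R6/2 mice were transgenic for exon 1 of human huntingtin bearing a long CAG tract, a model of Huntington's disease, and the 4 controls were wild-type, all of C57Bl/6 / CBA strain. By the labels R62_86 and all 4 controls were 85 days old, and the other 4 R6/2 mice 83 days. The transgene is driven by the huntingtin promoter and is not limited to 1 cell type. The comparison asked which transcripts differed between R6/2 and wild-type striatum. Mice are named as in the labels, and values of single mice are log2 expression in the order wildtype_46, wildtype_47, wildtype_49 and wildtype_66, then R62_86, R62_95, R62_105, R62_107 and R62_109. Differences are on the log2 scale, positive where R6/2 was higher, with the standard error (SE) from limma, and a gene was called where limma's adjusted p over all genes was under 0.05. Limma's p-values set the genotype difference against the spread between these mice, with the variance of each gene drawn toward that of all genes. Probe sets differ in brightness for reasons of their own, so levels of different genes are not compared.

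Potassium channels let potassium leave the cell, which holds the resting potential, repolarises the action potential and sets the rhythm of firing. Voltage-gated channels (Kcna, Kcnc, Kcnd, Kcnh, Kcnq) are tetramers of pore subunits that work with auxiliary proteins (Kcnab, Kcnip, Kcne) and with silent subunits that modify other channels (Kcnf, Kcng, Kcns, Kcnv). Inward rectifiers (Kcnj) and tandem pore leak channels (Kcnk) set the resting potential, and calcium- or sodium-activated channels (Kcnma, Kcnmb, Kcnn, Kcnt) follow the ions that enter during firing. Spiny projection neurons, the main striatal neurons, are known for strong inward rectification and for slow and fast A-type currents, which hold them silent and delay their firing.

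Potassium channel genes were called lower more often than genes in general. Their share called higher was smaller, but close to that of all genes within the brighter 50%. These 2 shares were not tested. In R6/2 mice 17 of the 84 fell (20.2%) and 5 rose (5.95%), whereas 7.57% of all genes were called lower and 9.28% higher. The median log2 difference was -0.06 over the 84 and -0.02 over all genes. In 19 of the 84 (22.6%) the 2 groups did not overlap, against 17.3% of all genes. Of the 37 genes among the brighter 50%, 14 fell (37.8%) and 5 rose (13.5%), where 10.7% of all brighter genes fell and 15.7% rose. Of the 47 dimmer genes 3 fell and 0 rose by limma, near the 4.5% and 2.86% of all dimmer genes. With only the brighter 50% of genes tested, 15 of the 37 were lower against 11.9% of those genes, and 6 were higher against 17.9%. The 62 genes not called spanned -1.39 to 0.78, and 13 of them had an unadjusted p under 0.05.

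**Figure D1:**
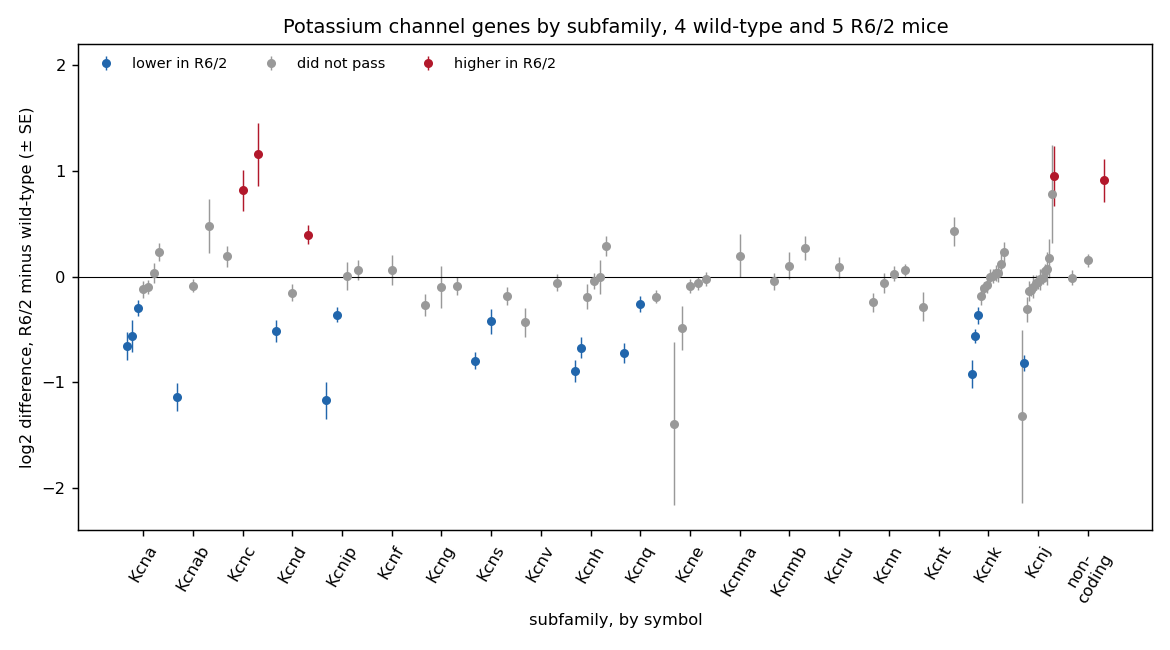
Log2 difference (R6/2 minus wild-type, 5 against 4 mice) of each of the 84 genes by subfamily; points are genes and bars are SE, coloured by limma's call. Calls in the lower direction lie in 9 subfamilies, and both coloured points of Kcnc lie above 0.

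Called genes were spread over many subfamilies. By symbol, lower calls were 3 of 7 Kcna, 1 of 3 Kcnab, 1 of 3 Kcnd, 2 of 4 Kcnip, 2 of 6 Kcnh, 2 of 3 Kcnq, 2 of 3 Kcns, 3 of 12 Kcnk and 1 of 15 Kcnj genes. Higher calls were 2 of 3 Kcnc, 1 of 3 Kcnd and 1 of 15 Kcnj genes and 1 of the 3 noncoding RNAs. None of the 5 Kcne, 3 Kcng, 3 Kcnmb, 4 Kcnn, 2 Kcnt or 2 Kcnv genes was called by limma, nor were Kcnf1, Kcnma1 and Kcnu1, although 6 of these 22 genes had an unadjusted p under 0.05. Members of a subfamily could lie on both sides of 0: the Kcnd genes ranged from -0.52 to 0.40 and the Kcnj genes from -1.32 to 0.95.

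Before the single genes, the cell types in the samples were checked through marker lists. Markers of spiny projection neurons were 15 of 16 lower in R6/2 mice, with a mean log2 level of 11.36 to 11.67 in wild-type and 9.57 to 10.48 in R6/2 mice. In bulk tissue fewer cells of a type and less RNA per cell cannot be told apart. Cortex projection neuron markers were 4 of 8 higher, with a mean level of 5.39 to 6.51 in wild-type and 6.34 to 7.32 in R6/2 mice. The choroid plexus list had 0 of 8 members called by limma, and its mean level spread from 5.74 to 8.37 in wild-type and from 5.31 to 6.84 in R6/2 mice, highest in wildtype_47, wildtype_66 and R62_107. Of the other lists, 4 of 10 interneuron, 4 of 9 astrocyte, 3 of 10 microglia and 3 of 9 oligodendrocyte markers were lower, and 0 of 10 endothelial and mural and 0 of 6 thalamus markers were called, with no member of these lists higher by limma.

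The counts were also taken with these levels in the fit or with arrays left out. With the mean cortex marker level as a covariate, 3 potassium channel genes were lower (Kcnj4, Kcns2 and Kcnh5) and 0 higher by limma (16 and 2 at an unadjusted p under 0.05), where 0.638% of all genes were lower and 0.357% higher. The cortex level differed between the genotypes, so its term overlaps with genotype. With the 3 arrays of highest choroid plexus level left out, only wildtype_46 and wildtype_49 remained, against R62_86, R62_95, R62_105 and R62_109. In that smaller fit 11 were lower and 0 higher (21 and 7 unadjusted), against 2.69% and 2.16% of all genes. All 11 were among the 17. With age as a covariate limma called 0 of the 84 (22 at an unadjusted p under 0.05), where 0.143% of all genes were lower and 0.022% higher, so this count says little about these genes. The 22 genes called without it kept their sign. Only R62_86 shares the age of the wild-type mice.

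The lowest called differences belonged to auxiliary subunits. Kcnip2 encodes a calcium-binding protein that joins the Kcnd pore subunits of fast A-type channels. It read 10.81, 10.85, 10.71 and 11.24 in the wild-type mice against 9.84, 10.05, 9.14, 9.96 and 9.68 in the R6/2 mice. Every R6/2 mouse lay below every wild-type mouse, and R62_105 was the lowest. The log2 difference was -1.17 ± 0.18 (SE, limma adjusted p 0.00166), 0.445 of the wild-type level. Its other probe sets gave -1.32 and -0.33, both past the threshold over all probe sets. Kcnab1 encodes a beta subunit that binds the inside of Kcna channels and speeds their inactivation. Its values were 11.28, 11.48, 11.58 and 11.66 in the wild-type mice against 10.49, 10.14, 10.01, 10.64 and 10.48 in the R6/2 mice, again without overlap. It fell by 1.14 ± 0.13 (limma adjusted p 0.000441), and its other probe set gave -1.19. The paralogue Kcnab2 read 9.56, 9.55, 9.55 and 9.52 in the wild-type mice against 9.45, 9.52, 9.53, 9.33 and 9.45 in the R6/2 mice. It gave -0.09 ± 0.06 and did not pass (limma adjusted p 0.357), nor did Kcnab3 (0.48 ± 0.26, adjusted p 0.236).

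Of the other Kcnip genes, Kcnip3, whose product also acts as a calcium-dependent repressor of transcription, read 8.93, 8.90, 9.10 and 8.95 in the wild-type mice against 8.50, 8.60, 8.59, 8.60 and 8.76 in the R6/2 mice, without overlap. Kcnip3 fell by 0.36 ± 0.07 (limma adjusted p 0.00637), a call that averaging its probe sets ended (-0.40, adjusted p 0.0562). Kcnip1 (0.00 ± 0.13) and Kcnip4 (0.06 ± 0.09) did not pass.

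Kcnd2 and Kcnd3, which encode pore subunits of fast A-type channels, moved in opposite directions. Kcnd2 was 10.93, 10.88, 10.90 and 11.10 in the wild-type mice against 10.39, 10.31, 10.19, 10.62 and 10.66 in the R6/2 mice. The groups did not overlap, and the gene fell by 0.52 ± 0.10 (limma adjusted p 0.00701), to 0.698 of the wild-type level. Kcnd3, its paralogue, was 8.59, 8.32, 8.29 and 8.28 in the wild-type mice against 8.65, 8.68, 8.74, 8.75 and 9.01 in the R6/2 mice. All R6/2 mice were higher, R62_86 only just above wildtype_46. Kcnd3 rose by 0.40 ± 0.09 (limma adjusted p 0.0155), but averaging its 4 probe sets ended the call (0.21, adjusted p 0.168). With the cortex marker level as a covariate Kcnd3 was 0.21 ± 0.14 and Kcnd2 -0.37 ± 0.16, and neither passed (limma adjusted p 0.515 and 0.321). Kcnd1 gave -0.15 ± 0.08. Dpp6, which encodes the membrane protein that completes these channels with Kcnd and Kcnip subunits, rose by 0.51 ± 0.12 (limma adjusted p 0.0128).

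Among Kcna genes, which encode pore subunits of voltage-gated channels, Kcna4 read 7.85, 7.61, 8.24 and 8.10 in the wild-type mice against 7.35, 7.18, 7.05, 7.35 and 7.53 in the R6/2 mice. Without overlap, Kcna4 fell by 0.66 ± 0.13 (limma adjusted p 0.00789), and its other probe set gave -0.82. Kcna5 read 8.17, 7.78, 8.19 and 8.09 in the wild-type mice against 7.33, 7.86, 7.10, 7.72 and 7.47 in the R6/2 mice. R62_95 lay above wildtype_47, and Kcna5 fell by 0.56 ± 0.15 (limma adjusted p 0.0262). Kcna1 was 10.70, 10.71, 10.47 and 10.74 in the wild-type mice against 10.34, 10.39, 10.26, 10.48 and 10.34 in the R6/2 mice. Only R62_107 reached the lowest wild-type mouse, wildtype_49. Kcna1 fell by 0.30 ± 0.07 (limma adjusted p 0.0199), a call that averaging its 4 probe sets ended (-0.17, adjusted p 0.197). The call of Kcna5 ended without wildtype_46, wildtype_49, wildtype_66, R62_86 or R62_109 (limma adjusted p 0.0571 to 0.0638), and that of Kcna1 without wildtype_47, wildtype_66 or R62_105 (0.0502 to 0.0592). Kcna2 read 9.54, 9.45, 9.43 and 9.62 in the wild-type mice against 9.45, 9.19, 9.45, 9.33 and 9.50 in the R6/2 mice and did not pass (-0.12 ± 0.08). Kcna6 gave 0.24 ± 0.09 (limma adjusted p 0.0890) with all R6/2 mice above all wild-type mice, yet its dimmest probe set gave -0.63 and passed over all probe sets (adjusted p 0.000601).

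The inward rectifier gene Kcnj4 had the smallest adjusted p of the 84. Kcnj4 encodes a strong rectifier of neurons that keeps the membrane near the potassium potential at rest. It read 9.13, 9.09, 9.05 and 8.87 in the wild-type mice against 8.30, 8.27, 8.11, 8.11 and 8.30 in the R6/2 mice. The R6/2 mice were close together and all below the wild-type range. Kcnj4 fell by 0.82 ± 0.08 (limma adjusted p 0.000148), to 0.568 of the wild-type level. With the cortex marker level as a covariate it was -0.94 ± 0.11 (limma adjusted p 0.0114), and with those 3 choroid plexus-rich arrays left out -0.85 ± 0.09 (0.0126).

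Kcnj10, the main inward rectifier of astrocytes, gave 8.40, 8.90, 8.26 and 8.63 in the wild-type mice against 8.42, 8.26, 8.86, 8.78 and 8.79 in the R6/2 mice. The groups overlapped over most of their range (0.08 ± 0.15, limma adjusted p 0.778). Kcnj16, its partner in heteromeric channels, gave 0.17 ± 0.18 and did not pass. Of the other strong rectifiers, Kcnj12 gave -0.31 ± 0.12 (limma adjusted p 0.104), and the dim probe set of Kcnj2 spanned 3.05 to 3.63 in wild-type and 3.23 to 3.34 in R6/2 mice. Kcnj11 and Kcnj8, pore subunits of channels that ATP closes, gave -0.13 ± 0.06 and -0.06 ± 0.06, and neither passed.

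Among subunits of channels that G proteins open, Kcnj3 read 7.36, 6.94, 6.69 and 6.11 in the wild-type mice against 7.66, 7.61, 8.31, 6.95 and 8.08 in the R6/2 mice. R62_107 lay within the wild-type range. Kcnj3 rose by 0.95 ± 0.29 (limma adjusted p 0.0437), whereas Kcnj6 (-0.02 ± 0.06), Kcnj5 (0.06 ± 0.06) and Kcnj9 (0.78 ± 0.47) did not pass. The call of Kcnj3 ended without wildtype_47, wildtype_49, wildtype_66, R62_86, R62_95, R62_105 or R62_109 (limma adjusted p 0.0649 to 0.113). Kcnj6, among the dimmer 50% of genes, read 4.89, 4.81, 4.89 and 4.89 in the wild-type mice against 4.75, 4.89, 4.89, 4.84 and 4.88 in the R6/2 mice. Most mice of both genotypes shared nearly the same value. Kcnj9 spread widely among R6/2 mice, from 6.48 in R62_95 to 8.61 in R62_109.

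**Figure D2:**
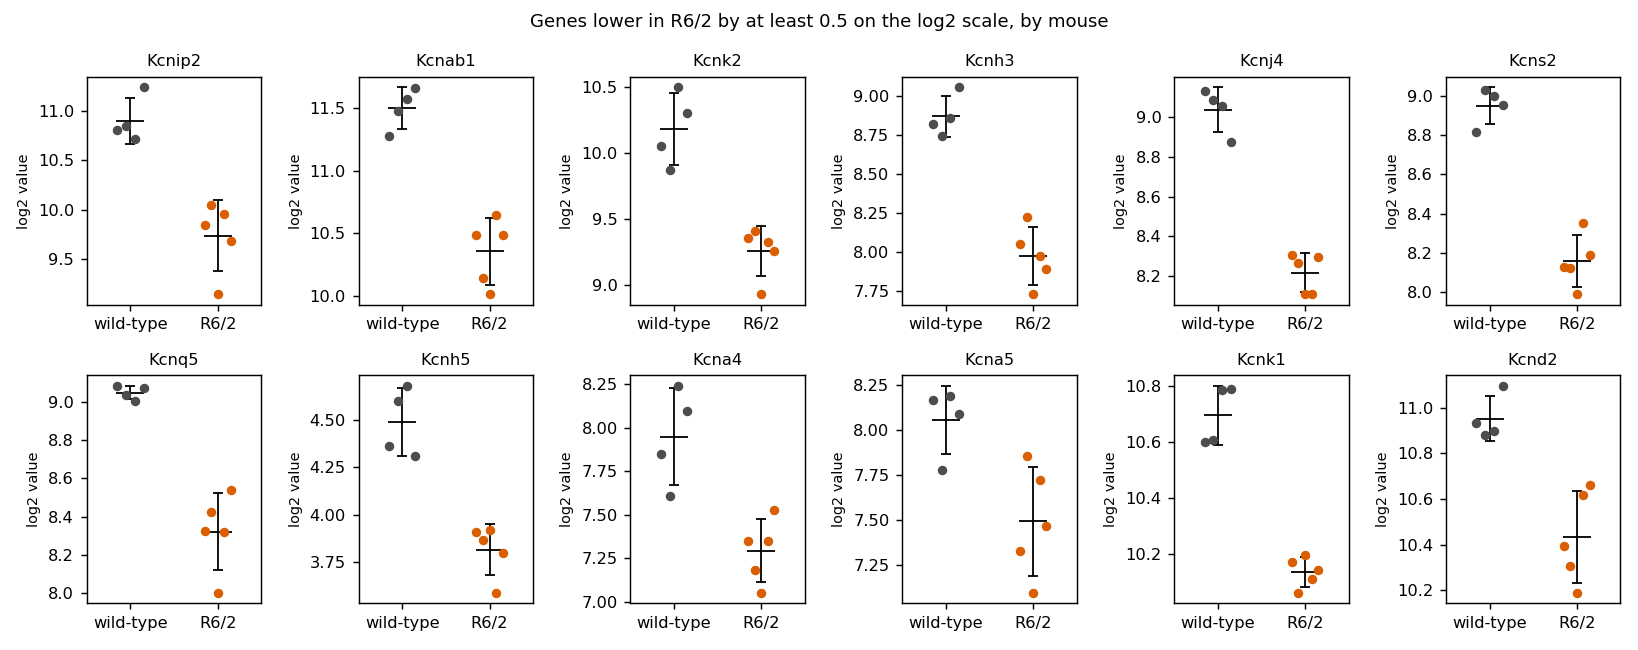
Log2 value by mouse of the 12 genes called lower by at least 0.5 on the log2 scale; points are mice, the wide mark is the group mean and bars are the SD (n = 4 wild-type and 5 R6/2). The groups overlap in Kcna5 alone.

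Leak channels of the tandem pore family were lower in 3 of 12 genes. Kcnk2, a channel opened by membrane stretch, fatty acids and heat, was 10.05, 9.87, 10.49 and 10.30 in the wild-type mice against 9.36, 9.41, 8.93, 9.32 and 9.26 in the R6/2 mice. It fell by 0.93 ± 0.13 without overlap (limma adjusted p 0.00138), to 0.527 of the wild-type level. Kcnk1, a weakly rectifying leak channel, was 10.60, 10.61, 10.79 and 10.79 in the wild-type mice against 10.17, 10.06, 10.20, 10.11 and 10.14 in the R6/2 mice. The R6/2 mice lay close together, all below wild-type, and Kcnk1 fell by 0.56 ± 0.07 (limma adjusted p 0.000463). Kcnk13, a leak channel known from microglia, read 6.23, 6.39, 6.48 and 6.28 in the wild-type mice against 5.96, 5.95, 5.91, 6.21 and 5.86 in the R6/2 mice. It fell by 0.37 ± 0.08 (limma adjusted p 0.0133), with R62_107 just below wildtype_46. The mean level of the microglia list was 8.07 to 8.61 in wild-type and 7.49 to 7.98 in R6/2 mice, and its part in the fall of Kcnk13 was not tested. Kcnk3, an acid-sensitive leak channel, gave 0.23 ± 0.10 and did not pass (limma adjusted p 0.131).

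Lower calls also included the ether-a-go-go relatives Kcnh3 and Kcnh5. Kcnh3, a forebrain channel that opens below the firing threshold, was 8.82, 8.75, 8.86 and 9.06 in the wild-type mice against 8.05, 8.23, 7.73, 7.98 and 7.89 in the R6/2 mice. It fell by 0.90 ± 0.10 without overlap (limma adjusted p 0.000393). Kcnh3's other probe sets gave -0.78, -0.28 and -0.15, of which the first 2 passed over all probe sets. Kcnh5, dim at 4.36, 4.60, 4.68 and 4.31 in wild-type, was 3.91, 3.87, 3.92, 3.59 and 3.80 in the R6/2 mice. Without overlap it gave -0.67 ± 0.10 (limma adjusted p 0.00144), and with the cortex marker level as a covariate -0.78 ± 0.15 (0.0483). The cardiac and neuronal channel gene Kcnh2 (-0.19 ± 0.12), Kcnh1 (-0.04 ± 0.08) and Kcnh7 (-0.01 ± 0.16) did not pass. Kcnh8, the only Kcnh gene above 0, gave 0.29 ± 0.09 and narrowly did not pass (limma adjusted p 0.0547).

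Subunits of the M-current, a slow current that muscarinic receptors shut off, were lower as well. Kcnq5 was 9.08, 9.03, 9.01 and 9.07 in the wild-type mice against 8.32, 8.42, 8.003, 8.32 and 8.54 in the R6/2 mice. The wild-type mice were close together and all R6/2 mice lay below them (-0.73 ± 0.10, limma adjusted p 0.000825). Of its other probe sets, 1 gave -0.77 and passed and the dimmest gave 0.03, and averaging the 3 ended the call (-0.49, adjusted p 0.258). Kcnq3 was 10.26, 10.24, 10.02 and 10.34 in the wild-type mice against 10.01, 10.06, 9.86, 9.96 and 9.89 in the R6/2 mice, overlapping at wildtype_49. Kcnq3's smaller difference (-0.26 ± 0.08, limma adjusted p 0.0413) lost its call without wildtype_46, wildtype_47, wildtype_66, R62_86, R62_105, R62_107 or R62_109 (0.0640 to 0.1104), while its dimmer probe set gave -0.86 and passed. Kcnq1, an epithelial and cardiac subunit, gave -0.19 ± 0.06 without overlap and did not pass (limma adjusted p 0.0604).

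Of the silent subunits, which form no channel of their own, Kcns2 was 8.82, 9.03, 9.0 and 8.96 in the wild-type mice against 8.13, 8.12, 7.99, 8.35 and 8.19 in the R6/2 mice. Kcns2 fell by 0.79 ± 0.08 without overlap (limma adjusted p 0.000252), and its other probe set gave -1.005. With the cortex marker level as a covariate it was -0.62 ± 0.11 (limma adjusted p 0.0378). Kcns1 was 5.72, 5.93, 6.22 and 5.83 in the wild-type mice against 5.43, 5.33, 5.81, 5.51 and 5.45 in the R6/2 mice, with R62_105 inside the wild-type range. It gave -0.42 ± 0.12 (limma adjusted p 0.0321), a call that ended without wildtype_47, wildtype_49, wildtype_66, R62_86, R62_95, R62_107 or R62_109 (0.0508 to 0.0737). Kcnv1 gave -0.43 ± 0.14 without overlap and did not pass (limma adjusted p 0.0547), although its 2 dimmer probe sets did over all probe sets (-0.64 and -0.62), and the mean of the 3 passed (-0.56, adjusted p 0.0186).

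Among the R6/2 mice, R62_105 was the lowest in 12 of the 17 genes that fell and the highest in 3 of the 5 that rose. The same mouse had the lowest spiny neuron marker level of all 9 mice (-1.89 from the wild-type mean) and the highest cortex marker level (1.39 above it). Without R62_105, 15 potassium channel genes were lower and 3 higher.

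Of the genes of fast-spiking channels, 2 of 3 rose. Their Kcnc subunits repolarise the membrane quickly and are known from interneurons and cortical neurons that fire at high rates. Kcnc2 was 7.85, 7.31, 6.78 and 6.17 in the wild-type mice against 8.22, 7.83, 8.65, 7.83 and 8.40 in the R6/2 mice. The wild-type mice spread widely, and wildtype_46 reached the lowest R6/2 mice. Kcnc2 rose by 1.16 ± 0.30 (limma adjusted p 0.0231), to 2.23 times the wild-type level. Kcnc4 was 7.71, 7.21, 7.004 and 6.85 in the wild-type mice against 7.90, 8.05, 8.42, 7.52 and 8.15 in the R6/2 mice, overlapping at R62_107. Kcnc4 rose by 0.81 ± 0.20 (limma adjusted p 0.0168), while its dimmer probe set gave 0.05. Kcnc1 read 8.47, 8.40, 8.32 and 8.12 in the wild-type mice against 8.52, 8.42, 8.63, 8.31 and 8.72 in the R6/2 mice and did not pass (0.19 ± 0.10). The call of Kcnc2 ended without wildtype_49, R62_86, R62_105 or R62_109 (limma adjusted p 0.0503 to 0.0570), and that of Kcnc4 without wildtype_66 (0.0515).

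Kcnc2, Kcnc4 and Kcnj3 followed the cortex marker level from mouse to mouse. Among wild-type mice that level was 0.58 above the wild-type mean in wildtype_46, 0.21 in wildtype_47, -0.25 in wildtype_49 and -0.54 in wildtype_66, and all 3 genes fell in that order. The uncalled Kcnc1 and the called Kcnd3 fell in that order as well. In R62_105 and R62_109, with the highest cortex levels (1.39 and 1.23), the 3 genes and Kcnc1 were also highest. With this level as a covariate Kcnc2 was 0.03 ± 0.16, Kcnc4 0.11 ± 0.14 and Kcnj3 -0.14 ± 0.15, and none passed (limma adjusted p 0.969, 0.793 and 0.729). The level itself was mostly higher in R6/2 mice (6.34 to 7.32, against 5.39 to 6.51 in wild-type mice), so this term overlaps with genotype. Slc17a7, the vesicular glutamate transporter of cortical neurons, read 7.88, 6.92, 5.85 and 5.58 in the same wild-type mice.

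**Figure D3:**
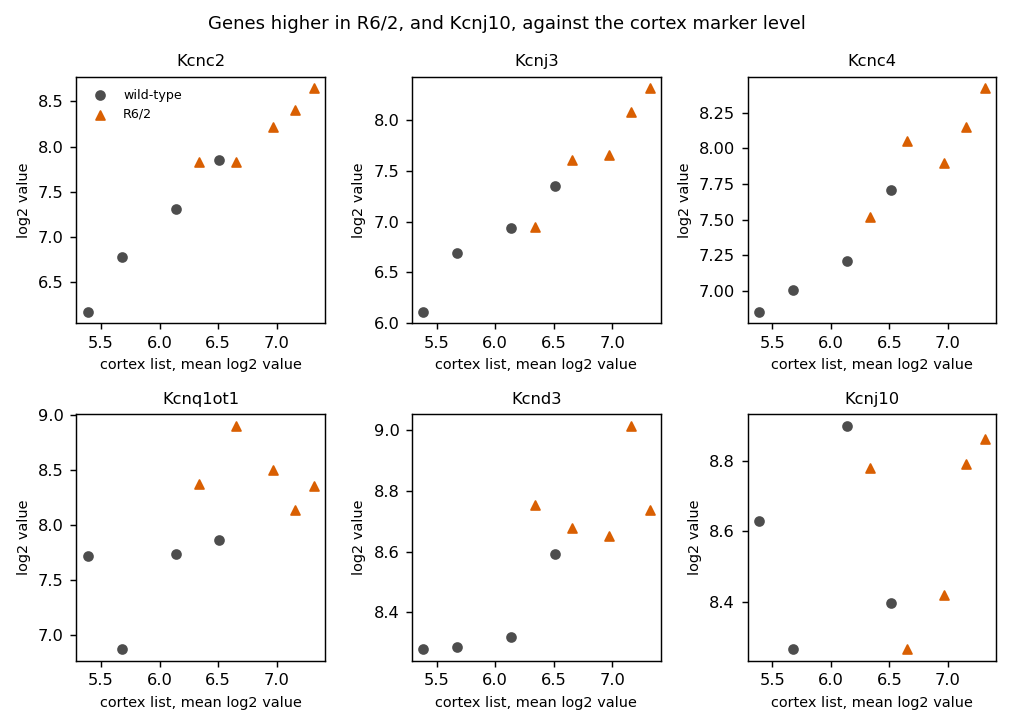
Log2 value (vertical) against the mean log2 value of the cortex projection neuron list (horizontal) for the 5 genes called higher and for Kcnj10; each point is a mouse. Kcnc2, Kcnj3 and Kcnc4 run upward with the cortex level over the 9 mice. Kcnq1ot1 and Kcnd3 are higher in all 5 R6/2 mice, and Kcnd3 also runs upward with the cortex level among wild-type mice.

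The noncoding RNA Kcnq1ot1 is an imprinted antisense transcript of the Kcnq1 locus and encodes no subunit. It was 7.86, 7.74, 6.86 and 7.72 in the wild-type mice against 8.50, 8.91, 8.36, 8.38 and 8.14 in the R6/2 mice. No R6/2 mouse overlapped wild-type, and wildtype_49 stood apart below the others. Kcnq1ot1 rose by 0.91 ± 0.21 (limma adjusted p 0.0126), and its second brightest probe set by 0.98, while the 4 dim ones gave -0.14 to 0.37 and did not pass. With the cortex marker level as a covariate it was 0.83 ± 0.33 (limma adjusted p 0.293). Kcnmb4os2 gave 0.15 ± 0.06 without overlap and Kcnmb4os1 -0.01 ± 0.07, and neither passed.

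When 1 mouse was left out, higher calls ranged from 3 to 6 and lower calls from 13 to 17. The 3 higher calls were reached without wildtype_66, R62_86, R62_105 or R62_109, and the 13 lower calls without wildtype_66. Some uncalled genes passed without 1 mouse, namely Kcnn1 without wildtype_46, Kcnh2, Kcnh8, Kcnt1 and Kcnt2 without wildtype_49, Kcnab3, Kcnd1 and Kcnh8 without R62_95, Kcnt2 without R62_107, and Kcng4 and Kcnv1 without R62_109. Their limma adjusted p were 0.0140 to 0.0494 in those fits.

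None of the calcium-activated channel genes was called by limma. Kcnma1, the pore of the large-conductance channel, was 9.20, 8.98, 8.10 and 8.58 in the wild-type mice against 9.04, 8.50, 9.16, 8.93 and 8.94 in the R6/2 mice (0.20 ± 0.20, limma adjusted p 0.551). The wild-type mice spread more widely than the R6/2 mice, and 1 of its dimmer probe sets gave -0.39 and passed over all probe sets (adjusted p 0.0154). Kcnmb4, its neuronal beta subunit, was 8.91, 8.98, 8.98 and 8.60 in the wild-type mice against 9.20, 8.997, 9.41, 8.91 and 9.18 in the R6/2 mice (0.27 ± 0.11, limma adjusted p 0.134). Among the small-conductance genes Kcnn1 gave -0.24 ± 0.09, Kcnn2 0.03 ± 0.07 and Kcnn3 -0.06 ± 0.09. The sodium-activated channel genes Kcnt1 (-0.29 ± 0.14) and Kcnt2 (0.43 ± 0.14) lay on opposite sides of 0.

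Kcnj13 and Kcne2, both known from the choroid plexus, had the lowest differences of all 84 and the widest spread. Kcnj13 was 5.28, 8.76, 4.90 and 8.67 in the wild-type mice against 4.94, 5.50, 4.95, 7.01 and 5.50 in the R6/2 mice (-1.32 ± 0.82, limma adjusted p 0.303). Kcne2 was 3.75, 6.73, 3.87 and 7.19 in the wild-type mice against 3.23, 3.67, 3.49, 5.77 and 3.80 in the R6/2 mice (-1.39 ± 0.77, limma adjusted p 0.248). In both genes wildtype_47, wildtype_66 and R62_107 were far above the other 6 mice. The same 3 mice had the highest choroid plexus marker level, 8.22, 8.37 and 6.84, and the other 6 lay between 5.31 and 6.06.

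**Figure D4:**
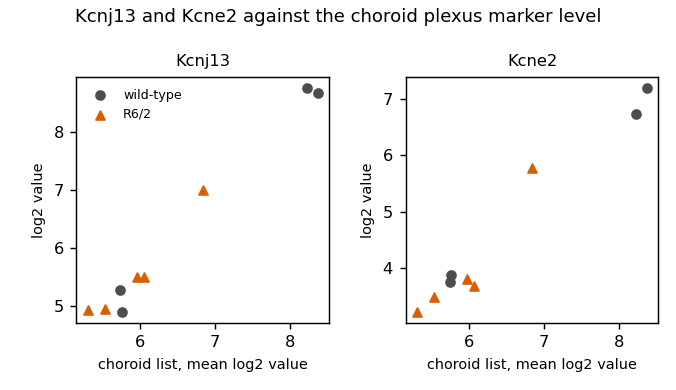
Log2 value of Kcnj13 and Kcne2 (vertical) against the mean log2 value of the choroid plexus list (horizontal); each point is a mouse. The mice wildtype_47, wildtype_66 and R62_107 lie at the upper right in both plots, and the other 6 mice at the lower left.

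Differences between 2 genes on the same array do not depend on how arrays are centred, and they ask whether partners or relatives changed unequally. Of 10 pairs listed, 8 were measured, and 7 passed an exact permutation test of genotype (126 splits, two-sided) after adjustment over the 8 pairs. All 7 hold a gene that limma called on its own, and Kcnab1 and Kcnd2 recur among them. Their passing is therefore not separate from the calls of single genes. The smallest p this design can give is 0.00794. Kcnab1 minus Kcnab2 was 1.71, 1.93, 2.03 and 2.15 in the wild-type mice against 1.03, 0.63, 0.48, 1.32 and 1.04 in the R6/2 mice, a change of -1.06 (exact p 0.00794, adjusted p 0.0159). Kcna2 minus Kcnab1 changed by 1.02 and Kcnd2 minus Kcnd3 by -0.92, with the same p and without overlap. Kcnc1 minus Kcnc2 changed by -0.96, also with that p. In the wild-type mice it was 0.62, 1.09, 1.54 and 1.95, rising in the order in which the cortex marker level fell. The pair was not tested with that level in the fit.

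Kcnd2 minus Kcnip2 went from 0.12, 0.03, 0.19 and -0.14 to 0.55, 0.25, 1.05, 0.66 and 0.98, a change of 0.65 (exact p 0.0159, adjusted p 0.0212). On these probe sets Kcnip2 fell further than Kcnd2, but the dimmest Kcnip2 probe set (-0.33) differed less than that of Kcnd2 used here (-0.52). The pair passed with all mice but not without wildtype_66 (0.59, adjusted p 0.0714 in the exact test). Kcnj4 minus Kcnj10, the neuronal against the astrocytic rectifier, changed by -0.89 (exact p 0.0159, adjusted p 0.0212), with all R6/2 mice below all wild-type mice. Kcnj3 minus Kcnj6 changed by 0.97 (exact p 0.0397, adjusted p 0.0454), a call that ended in the exact test without any mouse but R62_107 (adjusted p 0.0612 to 0.102). Kcnj6 was dim and differed little between mice, so this change largely repeats that of Kcnj3 (0.95), which followed the cortex marker level. Kcnma1 minus Kcnmb4 did not pass (-0.07, exact p 0.754, which was also its adjusted p). These pairs were listed with earlier results of the data known.

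**Figure D5:**
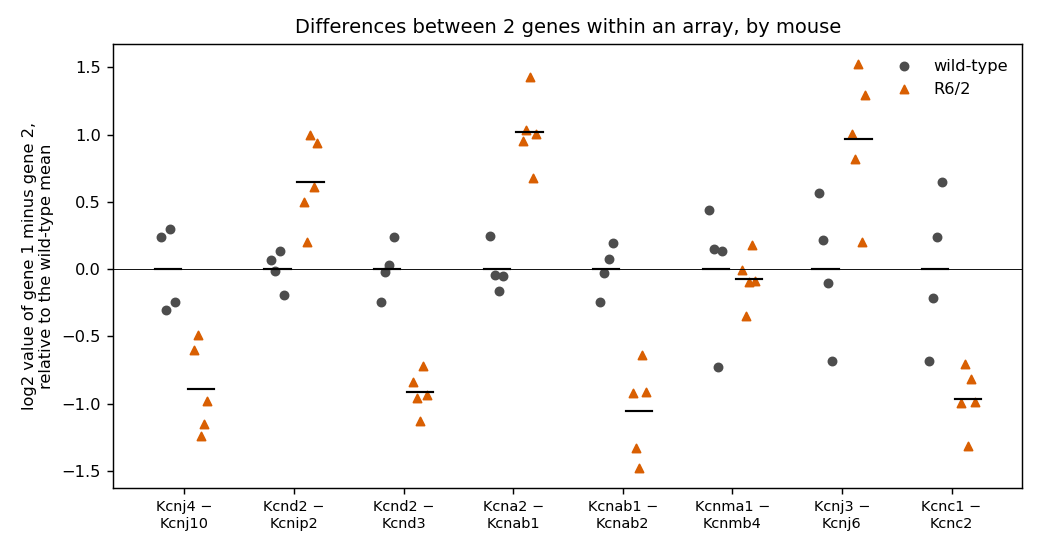
Log2 value of the first gene minus the second within each array, relative to the wild-type mean, for the 8 pairs; points are mice and short lines are group means. The groups separate in 6 pairs and overlap in Kcnma1 minus Kcnmb4 and Kcnj3 minus Kcnj6.

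Promoter sequences are shown for Kcnip2 and Kcnj4, which fell without overlap, and for Kcnj3, which rose, since each has a single promoter window in the RefSeq table of GRCm38.p6. A window holds 250 bases before and 50 after the start of the gene, on its own strand. The windows are Kcnip2 chr19:45816014-45816313 (minus strand), Kcnj4 chr15:79505192-79505491 (minus strand) and Kcnj3 chr2:55435720-55436019 (plus strand). Capitals mark the GC box GGGCGG, the letters that the factor Sp1 is known to bind, on either strand.
Kcnip2: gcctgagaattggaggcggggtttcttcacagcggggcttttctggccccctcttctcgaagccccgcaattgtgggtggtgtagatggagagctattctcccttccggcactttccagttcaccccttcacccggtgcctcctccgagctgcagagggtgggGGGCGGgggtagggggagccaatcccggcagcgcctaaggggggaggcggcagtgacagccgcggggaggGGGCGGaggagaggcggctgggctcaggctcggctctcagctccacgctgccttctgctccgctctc
Kcnj4: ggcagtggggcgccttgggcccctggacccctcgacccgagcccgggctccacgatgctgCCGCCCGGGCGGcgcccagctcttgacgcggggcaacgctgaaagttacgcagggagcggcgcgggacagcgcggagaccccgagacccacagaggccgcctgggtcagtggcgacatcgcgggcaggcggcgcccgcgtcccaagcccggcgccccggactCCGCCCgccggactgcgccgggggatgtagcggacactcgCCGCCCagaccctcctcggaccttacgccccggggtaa
Kcnj3: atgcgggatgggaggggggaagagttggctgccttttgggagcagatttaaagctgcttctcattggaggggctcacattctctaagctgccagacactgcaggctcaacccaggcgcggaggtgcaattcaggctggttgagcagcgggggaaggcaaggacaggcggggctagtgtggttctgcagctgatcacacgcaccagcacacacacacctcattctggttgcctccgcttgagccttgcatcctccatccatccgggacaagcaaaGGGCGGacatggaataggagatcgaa

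The Kcnip2 window was 67.0% G and C with 2 GC boxes, that of Kcnj4 76.0% with 4, and that of Kcnj3 57.7% with 1. The median was 52.7% over all windows and 58.0% over the 89 windows of the 64 potassium channel genes listed there. A GC box was found in 43 of these 89 windows (48.3%), in 10 of 21 windows of genes that fell, in 3 of 8 of genes that rose and in 35.7% of all windows. TATAAA was found in 5 of the 89 and in 13.6% of all windows. Exact matches to the cyclic AMP response element TGACGTCA, the Egr site GCGTGGGCG or the core of the REST site, searched on both strands, were found in none of the 89 and in 1.79%, 0.612% and 0.0365% of all windows. A match describes the letters only, and no match says only that these letters are not in the window.

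Partners of potassium channels without a Kcn symbol and genes of potassium transport were also measured. Of 22 partner genes measured of 26 listed, 4 fell (18.2%) and 1 rose (4.55%, Dpp6, above), against 7.57% and 9.28% of all genes, with a median log2 difference of -0.11. Akap9, which anchors kinases to channels, fell by 0.79 ± 0.11 (limma adjusted p 0.000820), with 10.23, 10.37, 10.26 and 10.56 in the wild-type mice against 9.54, 9.73, 9.26, 9.70 and 9.60 in the R6/2 mice. The scaffold genes Dlg4 (-0.63 ± 0.10) and Dlg2 (-0.54 ± 0.12), whose products cluster Kcna channels, fell, as did the pacemaker channel gene Hcn2 (-0.25 ± 0.07), named as the remaining member of the 4.

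Of 16 transport genes measured of 20 listed, 2 fell and 2 rose (12.5% each), close to the 7.57% and 9.28% of all genes, with a median of 0.00. Of these 4, 3 encode regulators of the sodium-potassium pump. Fxyd6 rose by 0.80 ± 0.11 (limma adjusted p 0.000900) and Fxyd7 by 0.62 ± 0.12, whereas Fxyd1 fell by 0.81 ± 0.13. In all 3 the groups did not overlap. The measured pump subunits, Atp1a4, Atp1b1, Atp1b2 and Atp1b3, gave -0.10 to 0.10 and did not pass by limma.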

How the data were processed

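Striatal RNA of 9 mice, 1 array each per the labels, was measured on Affymetrix arrays. The deposited values are log2 expression of 45101 probe sets, made by the authors with RMA (affy), per the submitters' processing notes; the version and the set of arrays processed jointly were not given. RMA gives the probe intensities of arrays processed jointly a common distribution, so differences are relative to other genes. Array medians of the deposited values ranged from 5.37 to 5.45. Array correlations lay between 0.979 and 0.995.

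Probe sets naming exactly 1 gene in the platform annotation (34945) covered 18193 genes; 64 control probe sets were left out, and dim probe sets were kept. Genotypes were compared with limma 3.58.1 in R 4.3.3 (lmFit, eBayes), two-sided. P-values were adjusted by Benjamini-Hochberg across these genes at a threshold of 0.05, or across all probe sets where each was tested on its own. Gene pairs were tested by exact permutation. The script was tested on simulated data.

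Members, lists, pairs and tests were chosen with earlier results of these data known. Every Kcn gene could be named; values by mouse are given for called genes, members of the pairs, Kcnj13 and Kcne2, the last named, like other uncalled genes, after their values were seen. Of other lists up to 4 members of smallest p were named, and Hcn2 in addition. Alternatives covered the probe set rule, dim genes, normalization and centring, variance models, the threshold, covariates and left-out mice. Potassium channel genes with no such probe set are not analysed here. Figures were drawn with matplotlib.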

Additional observations from a re-analysis of the deposited data

Results flagged for a closer look

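Of 168 groups (84 genes in 2 genotypes), 28 had a mouse far from the others by Dixon's ratio, the gap to the nearest mouse over the range, where chance would give about 1 in 20, or 8.4. Among the genes whose values are given by mouse, 8 such cases were found. The mouse wildtype_49 was lowest in Kcna1 (ratio 0.854) and in Kcnq1ot1 (0.853), and wildtype_47 in Kcnj6 (1.0), where the other 3 wild-type mice read 4.89. Kcnd3 had wildtype_46 at the top of its group (0.870) and R62_109 at the top of the other (0.713). The mouse R62_107 was the highest R6/2 mouse in Kcne2 (0.775), Kcnj13 (0.730) and Kcnk13 (0.713).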

How the results depend on the processing

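No paired analysis was possible because the genotypes share no replicate number. The count of lower genes, 17 as reported, was 0 with age as a covariate, 3 with the cortex marker level in the fit and 11 without the 3 arrays of highest choroid plexus score. Under every other setting it was between 12 and 19. The count of higher genes, 5 as reported, was 0 in those 3 fits, 0 at a threshold of 0.01 and 1 without moderation of the variance; it ranged from 3 to 6 when a mouse was left out. Partner genes changed numbered 5, but 3 without moderation, 0 with age, 0 with the cortex level, 3 without the 3 arrays and 2 at a threshold of 0.01. Transport genes numbered 4, but 0 with age, 0 with the cortex level and 2 without the 3 arrays. Of the pairs, 7 passed, 5 to 7 without 1 mouse, and 0 without the 3 arrays, where the exact test cannot go below 0.0667. The sign of Kcnj3 turned with the cortex level (-0.14), the only reversal among the 22 called genes. The age and cortex fits have fewer degrees of freedom, and both terms overlap with genotype. The cause of the losses in these and the other fits was not tested. Without moderation Kcna5, Kcnc2, Kcnc4, Kcnj3, Kcnq1ot1, Kcnq3 and Kcns1 did not pass; by quantile normalization Kcnj3 and Kcnq3 did not. Centring on 5 housekeeping genes shifted the median difference over all genes (-0.02 to -0.06) and gave 17 lower and 5 higher potassium channel genes, with Kcnq3 lost (adjusted p 0.0526) and Kcnv1 gained (0.0254), while the share of all calls that were higher went from 55.1% to 41.8%. The number of arrays limits precision, and the dimmer 50% of genes held 47 of the 84.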
